A study of Mus musculus with 20 samples.

Results

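The genes described here are 10 secreted regulators of BMP signalling, 6 ligands (Bmp2, Bmp4, Bmp5, Bmp7, Gdf11 and Bmp3) and 4 antagonists (Nog, Chrd, Grem1 and Fst). They were taken by gene name from tables of 54446 gene IDs. All 10 were found, and all 10 passed the filter for testing, a mean of at least 1 TPM over 15 libraries. Grem1 passed it only through the libraries where it was high. TPM is an abundance corrected for gene length and scaled to a fixed total per library. RNA was sequenced from pools of whole structures that had been grown out of mouse embryonic stem cells, strain F1G4. In every group the cells carried the T::H2B-mCherry/Sox2::H2B-Venus reporters, which mark cells that express Brachyury and Sox2. All structures began as small aggregates of cells freed of feeder cells, and all received a pulse of 3 µM CHIR99021, an activator of WNT signalling, after 48 h. The group 96h held structures at 96 h, 10 per library, and the 4 other groups held structures at 120 h, 6 per library. Gastruloid followed an earlier protocol without Matrigel, so other culture steps may differ too, and TLSMG was grown with Matrigel, a gel of basement membrane proteins. TLSMGC received Matrigel and further CHIR99021, and TLSMGCL received both of these plus LDN, which blocks BMP receptors and whose dose the labels do not give. Each group had 3 libraries that the labels call biological replicates, and structures were picked for an asymmetric pole, so the values describe picked structures of a single cell line.

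BMPs are secreted growth factors of the TGF-beta superfamily. A BMP dimer binds type I and type II receptor kinases, which phosphorylate Smad1, Smad5 and Smad9, and these enter the nucleus with Smad4 and switch on genes such as Id1, Id3 and Msx1. Secreted antagonists bind the ligand outside the cell and keep it from its receptors: Noggin (Nog), Chordin (Chrd) and Gremlin (Grem1) bind BMPs, and Follistatin (Fst) binds activins, Gdf11 and some BMPs. In the trunk of the embryo, BMP from lateral and dorsal tissue and antagonists from axial tissue and somites set the pattern of mesoderm and neural tube.

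Promoter sequences of 5 of the 10 genes were in the RefSeq table of build GRCm38.p6. Shown are 3 of these 5: Grem1 and Bmp5, whose group means spread most among the 5, and Gdf11, the next in spread, whose window held no motif searched. Each runs 5′ to 3′ over the 250 bases before the RefSeq start site. The last base of the Bmp5 window is also the first base of the Bmp5 locus given below. Capitals mark matches on either strand to 4 motifs: GGCGCC, a GC-rich element bound by BMP Smads, the shorter Smad element CAGAC, and the TCF/LEF elements CTTTGA and CTTTGT of WNT signalling. No match overlapped another. The windows are chr2:113758649-113758898 on the minus strand for Grem1, chr9:75775115-75775364 on the plus strand for Bmp5 and chr10:128891719-128891968 on the minus strand for Gdf11.
Grem1: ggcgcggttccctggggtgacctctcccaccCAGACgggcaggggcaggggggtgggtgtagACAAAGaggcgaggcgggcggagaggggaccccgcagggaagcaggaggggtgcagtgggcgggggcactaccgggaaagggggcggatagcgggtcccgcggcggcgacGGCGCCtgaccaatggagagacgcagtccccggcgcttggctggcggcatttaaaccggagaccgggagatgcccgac
Bmp5: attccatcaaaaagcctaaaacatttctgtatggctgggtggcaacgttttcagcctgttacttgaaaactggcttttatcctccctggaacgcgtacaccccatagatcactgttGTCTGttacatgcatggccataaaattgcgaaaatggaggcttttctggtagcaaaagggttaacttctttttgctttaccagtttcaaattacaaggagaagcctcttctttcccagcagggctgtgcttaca
Gdf11: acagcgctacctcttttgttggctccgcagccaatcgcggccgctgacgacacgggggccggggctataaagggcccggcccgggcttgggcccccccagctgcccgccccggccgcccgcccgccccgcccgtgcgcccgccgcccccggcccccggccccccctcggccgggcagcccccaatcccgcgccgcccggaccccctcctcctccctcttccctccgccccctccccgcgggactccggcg
In the Grem1 window the GC-rich element, the shorter Smad element and a TCF/LEF element (CTTTGT, in reverse form) stood at 1 place each. The Bmp5 window held CAGAC at 1 place, in reverse form, and the Gdf11 window held none of the 4 motifs. Of the windows not shown, that of Chrd also held the GC-rich element, at 1 place, and that of Bmp4 held none of the 4 motifs. Of 32851 promoter windows of the same length, 9.59% held the GC-rich element, 42.2% the shorter Smad element, 13.8% held CTTTGA and 16.5% held CTTTGT. GC content was 72% for Grem1, 42.8% for Bmp5 and 81.2% for Gdf11, against a median of 52.4% over all windows. These matches are letters in a window, and no binding was measured.

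Libraries of a group were alike, with Pearson's r across genes of 0.985 to 0.991 over 15 pairs. Read depth over exons per unit of FPKM, a measure of library depth, ran from 3.12 to 6.84, and 13688 to 14494 genes per library reached 1 TPM. Of the marker lists, the somite list (7 genes) summed to 520 to 1028 TPM and the list for fibroblast feeders (6 genes) to 24.4 to 70.4 TPM over all libraries. Noto, a defining notochord gene, was 0.303 to 0.447 TPM at 96h and was listed at 0 in every TLSMG, TLSMGC and TLSMGCL library. Shh, of the same list, was 0.344 to 0.530 TPM at 96h, 1.07 to 1.45 TPM in Gastruloid and 0.883 to 1.80 TPM in TLSMG. It was 0.520 to 0.700 TPM in TLSMGC and 0.185 to 0.385 TPM in TLSMGCL. That list (6 genes, Nog and Chrd among them) summed to 7.38 to 12.4 TPM at 96h and 9.14 to 12.8 TPM in TLSMG. It summed to 10.5 to 15.9 TPM in TLSMGC and 8.15 to 8.96 TPM in TLSMGCL. Replicate 1 of 96h stood apart from the 2 other 96h libraries in several marker lists. Its markers of intermediate and lateral plate mesoderm summed to 124.64 TPM against 74.1 and 79.7 TPM, and somite markers to 719 against 567 and 520 TPM. Presomitic and tailbud markers summed to 932 TPM against 1246 and 1374 TPM, and pluripotency markers to 115 against 187 and 170 TPM.

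Differences between groups were taken on log2(TPM + 1) from 1 limma fit over 14290 genes. A gene was called where the adjusted p was under 0.05. On this scale low levels give small differences. Among all genes, many were called in most comparisons: 41.2% in Gastruloid minus 96h (20.8% higher, 20.5% lower), 46.0% in TLSMG minus 96h (33.5% higher, 12.5% lower) and 39.3% in TLSMG minus Gastruloid (31.5% higher, 7.87% lower). In TLSMGC minus TLSMG 40.9% were called (10.4% higher, 30.5% lower), and in TLSMGCL minus TLSMG 44.9% (9.31% higher, 35.6% lower). TLSMGCL minus TLSMGC called 1.18% of genes (0.406% higher, 0.777% lower). The moderated F test among the 5 groups called 73.5%. The split of these calls moved with the scaling. After median-of-ratios scaling, 49.2% of the calls in TLSMG minus 96h were higher in place of 72.9%, 51.6% in TLSMG minus Gastruloid in place of 80.0%, and 49.4% in TLSMGC minus TLSMG in place of 25.5%. The same share was 51.0% in TLSMGCL minus TLSMGC in place of 34.3%, and 48.8% in TLSMGCL minus TLSMG in place of 20.7%. With FPKM it was 62.4% in Gastruloid minus 96h in place of 50.4%. The median gene lay at 0.14 in TLSMG minus 96h, 0.13 in TLSMG minus Gastruloid, -0.16 in TLSMGC minus TLSMG and -0.18 in TLSMGCL minus TLSMG. For these comparisons the difference from the median gene is given as well for the 10 genes and for Id1, Id3 and Msx1.

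All 10 genes differed among the 5 groups by the F test, with adjusted p from 1.42e-08 for Grem1 to 0.0272 for Bmp4, against the 73.5% of all genes. Grem1 had passed the filter only through the groups where it was high. Of the 10, 7 were called in Gastruloid minus 96h, 7 in TLSMG minus 96h, 7 in TLSMG minus Gastruloid and 8 in TLSMGC minus TLSMG. The addition of LDN, TLSMGCL minus TLSMGC, called 4 of 10, namely Nog and Grem1 lower and Bmp3 and Bmp7 higher. TLSMGCL minus TLSMG, which covers CHIR99021 and LDN together, called 9 of 10. In each comparison some of the 10 were higher and others lower, so they did not move as a group. The share called was above that of all genes in each comparison, and the 10 genes were chosen with results known. The comparisons share libraries and are not independent of each other. P-values set a difference against variation between pools of structures, 3 per group. That variation was estimated over all 5 groups together and moderated across genes. In pooled structures, fewer cells of a type and less RNA per cell cannot be told apart.

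**Figure D1:**
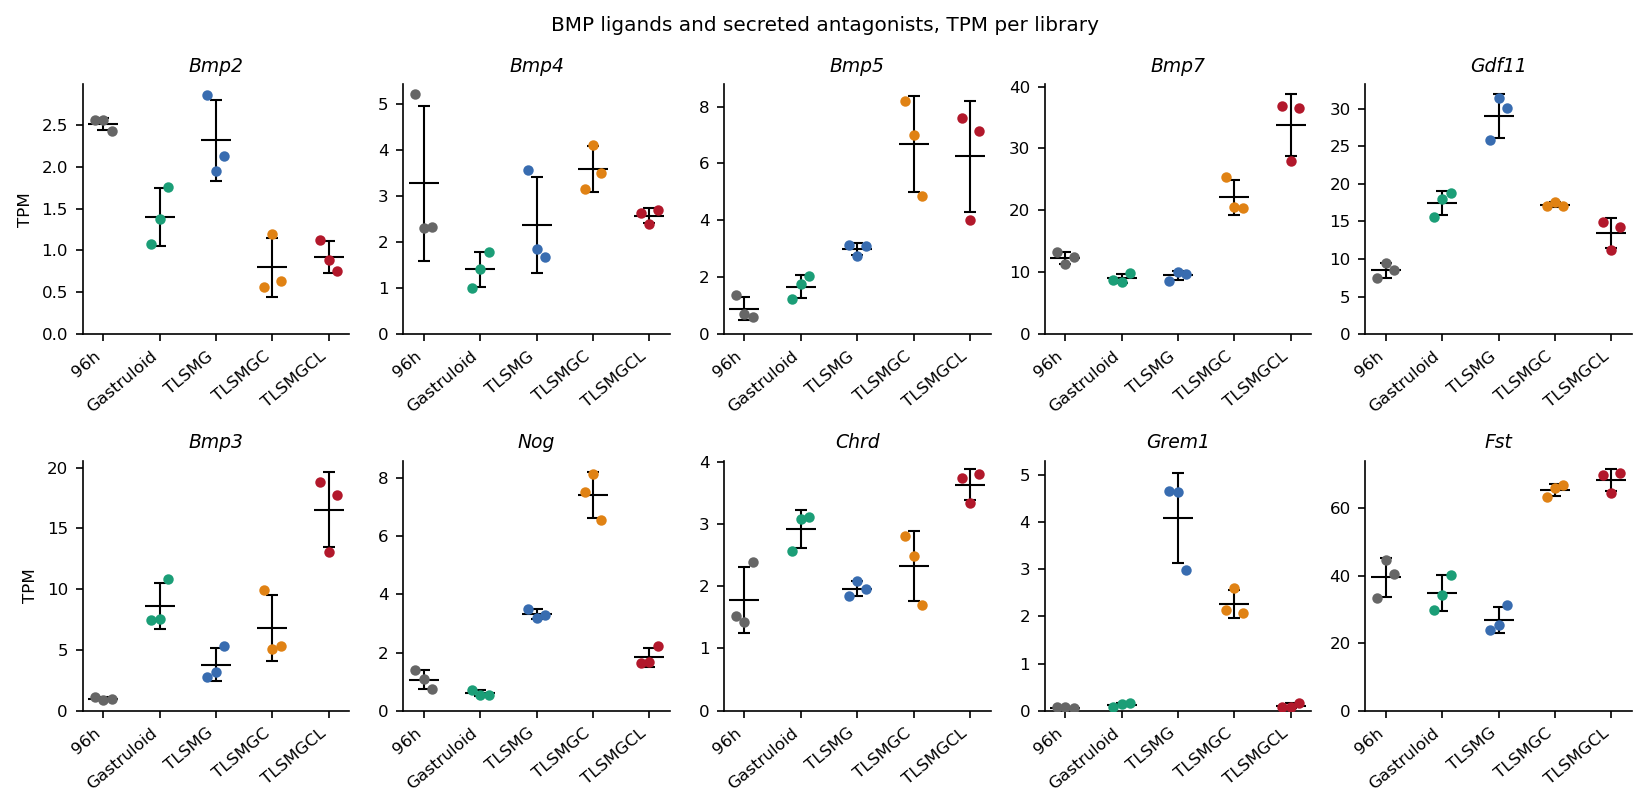
TPM of each of the 10 genes by group, with 1 point per library and lines for the group mean and SD (n = 3). Grem1 stands above 2 TPM only in TLSMG and TLSMGC, Nog is highest in TLSMGC, and the 3 TLSMGCL libraries are highest for Bmp7, Bmp3 and Chrd.

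**Figure D2:**
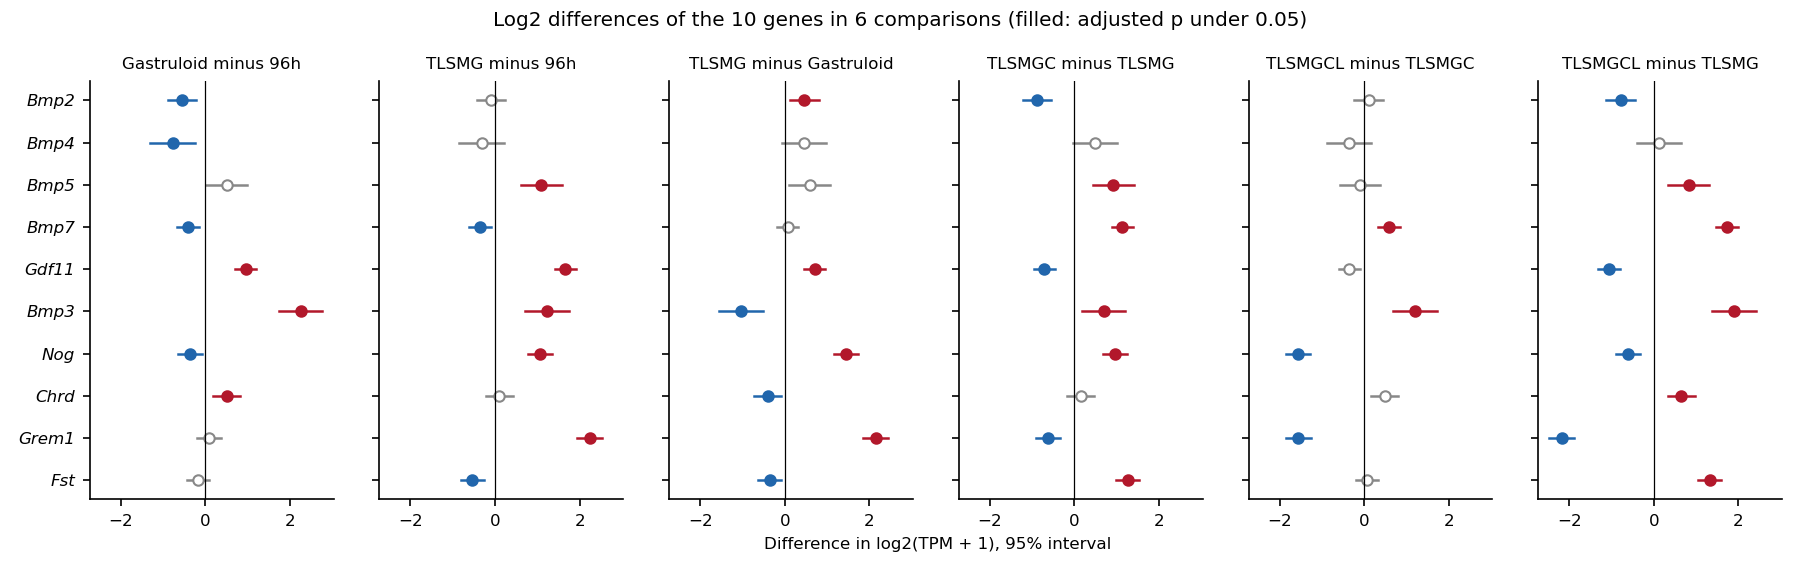
Difference in log2(TPM + 1) of each gene in the 6 comparisons, with 95% intervals. Filled red points were called higher and filled blue points lower, and with LDN (TLSMGCL minus TLSMGC) Nog lies at -1.57 and Grem1 at -1.55.

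Bmp7 was the ligand with the highest level after CHIR99021 and LDN. Bmp7 encodes a BMP that acts in kidney, eye and axial development, and the gene lies on chromosome 2, 172868012 to 172940321, minus strand, build mm10. Its TPM was 13.2, 11.3 and 12.5 at 96h, 8.71, 8.47 and 9.85 in Gastruloid and 8.58, 10.1 and 9.80 in TLSMG. It was 25.4, 20.5 and 20.4 in TLSMGC and 36.8, 28.0 and 36.5 in TLSMGCL. These values set the groups apart: every TLSMGC library was above every TLSMG library, and every TLSMGCL library above every TLSMGC library. CHIR99021 went with a rise from 9.48 ± 0.797 to 22.1 ± 2.85 TPM (SD, n = 3), a log2 difference of 1.13 ± 0.12 (SE, adjusted p = 7.56e-06) and 1.29 from the median gene. LDN went with a further rise to 33.8 ± 5.02 TPM, by 0.59 ± 0.12 (adjusted p = 0.0331). That second call was lost without TLSMGC replicate 2 (adjusted p = 0.125) or 3 (0.0814), or without TLSMGCL replicate 1 (0.127) or 3 (0.124). Bmp7 was lower in Gastruloid than at 96h, by -0.41 (adjusted p = 0.0133), and lower in TLSMG than at 96h, by -0.35 (0.0285), or -0.49 from the median gene. Both of these calls were lost without 96h replicate 1 (adjusted p = 0.0524 and 0.0951), and the second also without 96h replicate 3 (0.0701) or TLSMG replicate 1 (0.102). TLSMG and Gastruloid overlapped, at a difference of 0.07 with a 95% interval from -0.19 to 0.32, and -0.07 from the median gene.

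Bmp4, a ligand that promotes ventral and lateral mesoderm and dorsal neural fates, lies on chromosome 14, 46383520 to 46390669, minus strand. It was low in all groups and had the largest adjusted p of the 10 in the F test. Its TPM was 5.21, 2.29 and 2.32 at 96h, 1.01, 1.43 and 1.78 in Gastruloid, 3.57, 1.86 and 1.68 in TLSMG, 3.14, 4.11 and 3.50 in TLSMGC and 2.62, 2.39 and 2.701 in TLSMGCL. When groups were ordered by mean, each overlapped the next. The fall from 96h to Gastruloid was called, at -0.77 ± 0.24 (SE, adjusted p = 0.0210), but not without 96h replicate 1 (-0.47, adjusted p = 0.0972) or Gastruloid replicate 1 (0.0822). The library with 5.21 TPM is the 96h replicate that stood apart in several marker lists, lateral plate markers among them. Their part in the result was not tested. TLSMGC minus TLSMG was 0.48 (adjusted p = 0.131), or 0.64 from the median gene, and 0.72 without TLSMG replicate 1 (0.0311). No library overlapped between TLSMGC and TLSMGCL, yet the difference of -0.35 was not called (adjusted p = 0.594, 95% interval from -0.88 to 0.17).

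Bmp2, the closest relative of Bmp4, lies on chromosome 2, 133552159 to 133562885, plus strand, and moved in the opposite direction to Bmp5 and Bmp7 with CHIR99021. Its TPM was 2.55, 2.56 and 2.42 at 96h, 1.07, 1.38 and 1.76 in Gastruloid and 2.86, 1.95 and 2.13 in TLSMG. In TLSMGC it was 0.561, 1.199 and 0.635 and in TLSMGCL 1.13, 0.884 and 0.750. Libraries at 96h and in TLSMG were the high ones, and Gastruloid, TLSMGCL and TLSMGC overlapped in a lower range. The fall from TLSMG to TLSMGC was -0.89 ± 0.16 (SE, adjusted p = 0.000571), or -0.73 from the median gene. From 96h to Gastruloid Bmp2 fell by 0.56 on this scale (adjusted p = 0.0117), a call lost without Gastruloid replicate 1 (0.0546). TLSMG was above Gastruloid by 0.46 (adjusted p = 0.0313), or 0.33 from the median gene, but this was not called with median-of-ratios scaling (0.35, adjusted p = 0.0941) or FPKM (0.26, 0.0761). It was also lost without Gastruloid replicate 1 (adjusted p = 0.124) or 2 (0.0711), or TLSMG replicate 1 (0.122) or 3 (0.0533). LDN left Bmp2 at 0.11 above TLSMGC, with a 95% interval from -0.23 to 0.44.

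Bmp5, a relative of Bmp7 with roles in skeletal and mesodermal tissue, lies on chromosome 9, 75775364 to 75900310, plus strand. It was 1.38, 0.702 and 0.623 TPM at 96h, 1.22, 1.76 and 2.03 TPM in Gastruloid and 3.15, 2.74 and 3.10 TPM in TLSMG. It reached 8.20, 7.01 and 4.87 TPM in TLSMGC and 7.61, 4.01 and 7.14 TPM in TLSMGCL. The mean was higher in each group in the order 96h, Gastruloid, TLSMG, TLSMGC, and all TLSMGC and TLSMGCL libraries were above all others, with these 2 groups overlapping. TLSMG exceeded 96h by 1.09 ± 0.22 (SE, adjusted p = 0.00133), or 0.95 from the median gene. TLSMGC exceeded TLSMG by 0.92 ± 0.22 (adjusted p = 0.00504), or 1.08 from the median gene. TLSMG minus Gastruloid fell just outside the threshold, at 0.59 (adjusted p = 0.0506), or 0.46 from the median gene, with no overlap of libraries. It was called with a pseudocount of 0.1 (adjusted p = 0.0479) or 0.5 (0.0463), in a fit of the 2 groups alone (0.0161), and without Gastruloid replicate 3 (0.0495). Gastruloid minus 96h was 0.50 (adjusted p = 0.0891), and 0.67 (0.0416) without 96h replicate 1. The difference with LDN was -0.10, with a 95% interval from -0.58 to 0.38.

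Gdf11 sets the position of trunk-to-tail transition in the embryo through activin receptors and is bound by Follistatin. It lies on chromosome 10, 128882295 to 128891718, minus strand. Its TPM was 7.45, 9.45 and 8.59 at 96h, 15.6, 18.0 and 18.7 in Gastruloid and 25.8, 31.4 and 30.0 in TLSMG. With CHIR99021 it was 17.0, 17.6 and 17.1, and with LDN added 14.9, 11.1 and 14.3. TLSMG was above all other groups, and 96h below all others. Gdf11 rose from 96h to Gastruloid by 0.96 ± 0.12 (SE, adjusted p = 2.18e-05), and was higher again in TLSMG than in Gastruloid by 0.71 ± 0.12 (adjusted p = 0.000661), or 0.57 from the median gene. It fell from TLSMG to TLSMGC by -0.72 ± 0.12 (adjusted p = 0.000315), or -0.56 from the median gene. Each of these calls held without any 1 of the libraries concerned and under both other scalings. Between TLSMGC and TLSMGCL no library overlapped, and the difference of -0.35 was not called (adjusted p = 0.203).

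Bmp3 differs from the other ligands in that its protein is known to act against BMP2 and BMP4. It lies on chromosome 5, 98854415 to 98884396, plus strand, and had the widest range of the ligands, 16.5-fold between the highest and lowest group mean. Its TPM was 1.16, 0.892 and 0.950 at 96h, 7.50, 7.58 and 10.8 in Gastruloid, 2.79, 3.22 and 5.34 in TLSMG, 9.97, 5.08 and 5.36 in TLSMGC and 18.8, 13.1 and 17.8 in TLSMGCL. TLSMGCL was above every other library and 96h below, and TLSMGC overlapped both Gastruloid and TLSMG. From 96h to Gastruloid it rose by 2.25 ± 0.24 (SE, adjusted p = 6.37e-06), and TLSMG was below Gastruloid by -1.03 ± 0.24 (adjusted p = 0.00467), or -1.16 from the median gene. With CHIR99021 it was higher than in TLSMG by 0.69 (adjusted p = 0.0345), or 0.85 from the median gene, although libraries overlapped. This call was lost without TLSMGC replicate 1 (0.42, adjusted p = 0.154) or TLSMG replicate 1 (0.126) or 2 (0.105). With LDN it was higher by 1.21 ± 0.24 (adjusted p = 0.0309) than in TLSMGC. That call was lost without TLSMGC replicate 2 (adjusted p = 0.123) or 3 (0.0779), or TLSMGCL replicate 1 (0.117) or 3 (0.105), while the difference stayed between 1.06 and 1.48.

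Nog encodes Noggin, which binds BMP2, BMP4 and BMP7 and is made by notochord, dorsal neural tube and somites in the embryo. It lies on chromosome 11, 89300638 to 89302332, minus strand. Its TPM was 1.39, 1.1004 and 0.730 at 96h, 0.716, 0.543 and 0.537 in Gastruloid and 3.51, 3.19 and 3.29 in TLSMG. It was 7.51, 8.15 and 6.57 in TLSMGC and 1.64, 1.67 and 2.21 in TLSMGCL. No group overlapped the next in the order TLSMGC, TLSMG, TLSMGCL, 96h, Gastruloid, a 12.4-fold range of means. TLSMG exceeded Gastruloid by 1.44 ± 0.13 (SE, adjusted p = 2.06e-05), or 1.30 from the median gene. TLSMGC exceeded TLSMG by 0.95 ± 0.13 (adjusted p = 8.06e-05), or 1.11 from the median gene. LDN went with a fall from 7.41 ± 0.795 to 1.84 ± 0.321 TPM (SD, n = 3), a log2 difference of -1.57 ± 0.13 (adjusted p = 5.74e-05), which took Nog below TLSMG by -0.61 (adjusted p = 0.00205), or -0.43 from the median gene. These 4 calls held without each library concerned and under both other scalings. The small difference between Gastruloid and 96h, -0.36 (adjusted p = 0.0398), did not hold with FPKM (0.0802) or without 96h replicate 1 (-0.26, 0.165) or 2 (0.0972), or Gastruloid replicate 2 (0.104) or 3 (0.0998).

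Grem1 encodes Gremlin, an antagonist of BMP2, BMP4 and BMP7 known from limb bud and kidney development. It lies on chromosome 2, 113746164 to 113758646, minus strand. It was 4.65, 4.63 and 2.98 TPM in TLSMG and 2.12, 2.59 and 2.07 TPM in TLSMGC, and between 0.0557 and 0.162 TPM in each of the 9 libraries of the 3 other groups. TLSMG and TLSMGC were thus the 2 groups in which Grem1 stood above 1 TPM. Its mean over all libraries was 1.33 TPM, so it passed the filter only through these groups. Its F test and its calls against the low groups are not free of that selection. In the low libraries the mean read depth over its exons was 0.108 to 0.361, so their order rests on few reads. TLSMG exceeded Gastruloid by 2.15 ± 0.14 (SE, adjusted p = 1.75e-06), or 2.02 from the median gene. TLSMGC was below TLSMG by -0.63 ± 0.14 (adjusted p = 0.00235), or -0.47 from the median gene, the opposite direction to Nog. With LDN it fell from 2.26 ± 0.287 to 0.108 ± 0.0466 TPM (SD, n = 3), a log2 difference of -1.55 ± 0.14 (adjusted p = 7.03e-05). All 3 calls held without each library concerned, under both other scalings and with no filter on low values.

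Chrd encodes Chordin, the antagonist of the node and notochord, which astacin-like proteases cut to release BMP. It lies on chromosome 16, 20733127 to 20742384, plus strand. Its TPM was 1.52, 1.43 and 2.397 at 96h, 2.56, 3.09 and 3.11 in Gastruloid, 1.84, 2.08 and 1.95 in TLSMG, 2.80, 2.48 and 1.70 in TLSMGC and 3.75, 3.34 and 3.804 in TLSMGCL. TLSMGCL was above all other libraries, and among the 4 other groups each overlapped the next in order. The 2.04-fold range was the narrowest of the 10 genes. TLSMGCL exceeded TLSMG by 0.65 ± 0.15 (SE, adjusted p = 0.00323), or 0.83 from the median gene. TLSMGCL minus TLSMGC was 0.49 with no overlap and was not called (adjusted p = 0.153), so Chrd did not show the fall with LDN that Nog and Grem1 showed; its 95% interval ran from 0.17 to 0.81. Chrd was higher in Gastruloid than at 96h by 0.51 (adjusted p = 0.0145), a call lost without 96h replicate 1 (0.0560) or 2 (0.0657). TLSMG minus Gastruloid was -0.40 (adjusted p = 0.0450), or -0.54 from the median gene, and this call was lost in 5 of 6 fits that left out a library of these groups, with adjusted p up to 0.117; it held without Gastruloid replicate 1 (0.0494).

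Fst encodes Follistatin, which binds activins and Gdf11 tightly and BMPs more weakly. It lies on chromosome 13, 114452290 to 114458951, minus strand, and had the highest mean TPM of the 10 genes over all libraries and in each group but TLSMG, where the mean of Gdf11 was higher (29.1 against 26.9 TPM). It was 33.4, 44.7 and 40.6 TPM at 96h, 29.9, 34.3 and 40.4 TPM in Gastruloid, 23.9, 25.5 and 31.4 TPM in TLSMG, 63.3, 66.2 and 66.8 TPM in TLSMGC and 69.9, 64.7 and 70.6 TPM in TLSMGCL. The groups with CHIR99021 at the end were above all others and overlapped each other. Fst rose from TLSMG to TLSMGC by 1.26 ± 0.12 (SE, adjusted p = 4.06e-06), or 1.42 from the median gene. LDN went with a difference of 0.06, with a 95% interval from -0.20 to 0.33. TLSMG was below 96h by -0.54 (adjusted p = 0.00289), or -0.68 from the median gene. TLSMG was below Gastruloid by -0.36 (adjusted p = 0.0334), or -0.49 from the median gene, with overlapping libraries. This call was lost without Gastruloid replicate 2 (adjusted p = 0.0685) or 3 (0.137), or TLSMG replicate 1 (0.122) or 2 (0.0967).

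Some genes of other names overlap these loci in GENCODE M21. Thpo overlaps Chrd on the other strand and was listed at 0.130 to 0.996 TPM. Gm47040 overlaps Fst on the other strand (0 to 0.675 TPM), and Gm15222 (0 to 0.369 TPM) and Gm15217 (0 throughout) overlap Bmp4. Gm26903 and Gm47723, which overlap Bmp5, were listed at 0 in 14 and 15 libraries. The kit marks strand, but use of strand in the counting is not given in the sources used here, so shares of reads between partners are uncertain, mainly for Chrd.

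Summed over the genes, with Gdf11 among the ligands, ligand transcripts increased in mean from group to group and antagonist transcripts stood at 2 levels. The 6 ligands summed to 28.5 ± 2.13 TPM at 96h, 39.6 ± 5.02 in Gastruloid, 50.02 ± 2.86 in TLSMG, 57.2 ± 6.37 in TLSMGC and 73.5 ± 12.2 in TLSMGCL (SD, n = 3). The 4 antagonists summed to 42.5 ± 5.59, 38.5 ± 5.46 and 36.3 ± 2.95 TPM in the first 3 of these groups and to 77.4 ± 1.84 and 74.0 ± 3.71 TPM in TLSMGC and TLSMGCL. Fst made up most of the antagonist sum, 93.0% at 96h, 73.9% in TLSMG and 92.5% in TLSMGCL. Without Fst, the sum of Nog, Chrd and Grem1 was 9.38 ± 0.998 TPM in TLSMG and 11.996 ± 1.49 TPM in TLSMGC, and 5.58 ± 0.549 TPM with LDN. At 96h and in Gastruloid it was 2.92 ± 0.295 and 3.65 ± 0.249 TPM. The main ligand also changed. Gdf11 was 58.0% of ligand TPM in TLSMG and 18.3% in TLSMGCL, and Bmp7 was 18.9% and 46.1%. Over 96h, Gastruloid and TLSMG, the mean of Gdf11 went from 8.50 to 17.4 to 29.1 TPM. That of Bmp3 went from 1.002 to 8.64 to 3.78 TPM, and that of Bmp7 from 12.3 to 9.01 to 9.48 TPM. The rise of the ligand sum over these groups was thus not shared by all ligands. These sums were not tested, and transcript sums do not measure protein.

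**Figure D3:**
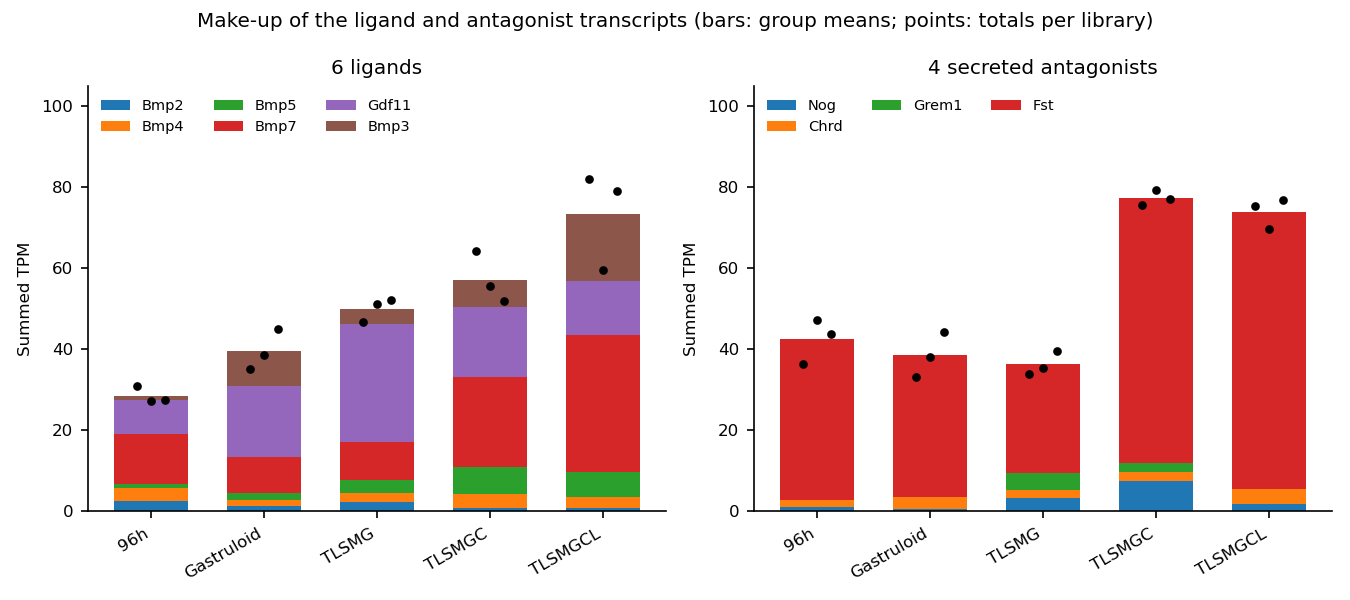
Summed TPM of the 6 ligands (left) and 4 antagonists (right) by group, as stacked group means with points for the total in each library. Gdf11 is the largest ligand share in TLSMG and Bmp7 in TLSMGCL, and Fst fills 73.9% or more of each antagonist bar.

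Genes that respond to BMP were compared in the same fit, to set the ligands and antagonists beside a readout of the pathway. Id1 was 84.5, 76.7 and 66.1 TPM in TLSMG, 29.9, 33.2 and 33.8 TPM in TLSMGC and 14.5, 14.7 and 12.8 TPM in TLSMGCL. Id3 was 191, 256 and 214 TPM, then 63.3, 70.1 and 73.2 TPM, then 17.9, 23.0 and 19.4 TPM in the same groups. Both fell with CHIR99021 and again with LDN, with no overlap at either step. The fall with LDN was -1.15 for Id1 (adjusted p = 0.000509) and -1.73 for Id3 (4.73e-05). Msx1 went a different way. It was 11.9, 26.3 and 18.2 TPM in TLSMG, 35.5, 44.3 and 42.3 TPM in TLSMGC and 17.6, 19.9 and 15.5 TPM in TLSMGCL, higher with CHIR99021 by 1.13 (adjusted p = 0.000573; 1.29 from the median gene) and lower with LDN by -1.16 (0.0125). The Msx1 call with LDN was lost without TLSMGC replicate 2 or TLSMGCL replicate 1 or 3, at adjusted p up to 0.0604. Nog and Msx1 thus were higher with CHIR99021 and lower with LDN, while Grem1, Id1 and Id3 were lower at both steps. From 96h to Gastruloid, Id1 fell by 0.67 (adjusted p = 0.000822), Msx1 fell by 2.04 (2.83e-06) and Id3 rose by 0.84 (0.000252). From Gastruloid to TLSMG all 3 rose, Id1 by 1.34 (adjusted p = 2.57e-05), Id3 by 0.77 (0.000920) and Msx1 by 2.33 (1.34e-05), which is 1.202, 0.64 and 2.20 from the median gene. TLSMG minus 96h was 0.67 for Id1 (adjusted p = 0.000730), 1.62 for Id3 (5.75e-07) and 0.29 for Msx1 (0.254), or 0.52, 1.47 and 0.15 from the median gene. TLSMGC minus TLSMG was -1.20 for Id1 (adjusted p = 7.26e-06) and -1.66 for Id3 (8.30e-07), or -1.04 and -1.50 from the median gene. TLSMGCL minus TLSMG was -2.35 for Id1 (adjusted p = 1.62e-08), -3.39 for Id3 (9.03e-10) and -0.03 for Msx1 (0.921), or -2.16, -3.21 and 0.16 from the median gene.

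Markers of some cell types moved in the same comparisons as Nog and Grem1. With LDN, the list for intermediate and lateral plate mesoderm summed to 7.69 to 9.31 TPM against 23.7 to 36.6 TPM in TLSMGC, and 4 of its 7 tested genes were lower. These were Foxf1, Lhx1, Osr1 and Pax2, and of the 9 genes listed Pax8 and Hand1 were at 0 in TLSMGCL. Pax2, a gene of intermediate mesoderm, was 5.38, 7.16 and 4.06 TPM in TLSMGC and 0.257, 0.191 and 0.152 TPM with LDN, the largest of these falls (-2.42, adjusted p = 6.43e-06). Osr1 and Foxf1 fell by 1.70 (adjusted p = 0.00302) and by 1.32 (0.00461). These marker genes, and Lmx1a, Lmx1b, Wnt1 and Zic1 of another list, were chosen after their values were seen. Endothelial markers (8 genes) summed to 24.2 to 78.9 TPM in TLSMGC, highest in replicate 2, and to 11.9 to 19.7 TPM in TLSMGCL, with 3 of 8 lower. With Matrigel, where Nog and Grem1 rose, endothelial markers went from 33.7 to 44.2 TPM in Gastruloid to 260 to 315 TPM in TLSMG, with 7 of 8 higher. Lateral and intermediate markers went from 12.4 to 14.9 TPM to 31.2 to 43.8 TPM, with 4 of 7 higher. With CHIR99021, endothelial markers were lower for 8 of 8 genes and neural tube markers for 6 of 6, from 194 to 291 TPM to 43.8 to 59.2 TPM. Presomitic and tailbud markers were higher for 6 of 8, from 117 to 156 TPM to 274 to 363 TPM. Somite markers were lower for 5 of 7 and higher for 1, from 729 to 870 TPM to 560 to 593 TPM. Lateral and intermediate markers were higher for 2 of 7, Lhx1 and Pax2, and lower for 2, Foxf1 and Osr1. Their sums overlapped, at 31.2 to 43.8 TPM in TLSMG and 23.7 to 36.6 TPM in TLSMGC. Of the list for roof plate and dorsal neural cells, which includes Msx1, the genes called went in the direction of Nog at each of these steps. The untested genes Lmx1a and Wnt1 rose with Matrigel as Nog did, but fell with CHIR99021, where Nog rose. Lmx1a was 0 to 0.0965 TPM in Gastruloid, 1.12 to 1.36 TPM in TLSMG and 0 to 0.0845 TPM in TLSMGC. Wnt1 was 0 to 0.163 TPM in Gastruloid and 0.272 to 1.503 TPM in TLSMG. With Matrigel 3 of the 4 tested genes of the list were higher (25.5 to 37.1 TPM in Gastruloid, 45.9 to 84.9 TPM in TLSMG). With CHIR99021 3 of 4 were higher, namely Lmx1b, Msx1 and Zic1 (155 to 179 TPM in TLSMGC). With LDN 2 of 4 were lower, Msx1 and Lmx1b, while the sum of the list overlapped that of TLSMGC (134 to 182 TPM). Lmx1b, a roof plate gene, was 5.01, 4.71 and 3.03 TPM in TLSMGC and 1.61, 1.47 and 1.33 TPM with LDN (-1.07, adjusted p = 0.00497). Of the 6 genes listed, Wnt1 was at 0 in TLSMGC and TLSMGCL. Of all genes, 31.5% were higher with Matrigel, 10.4% higher and 30.5% lower with CHIR99021, and 0.777% lower with LDN. The part of these cell types in the ligand and antagonist differences was not tested.

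**Figure D4:**
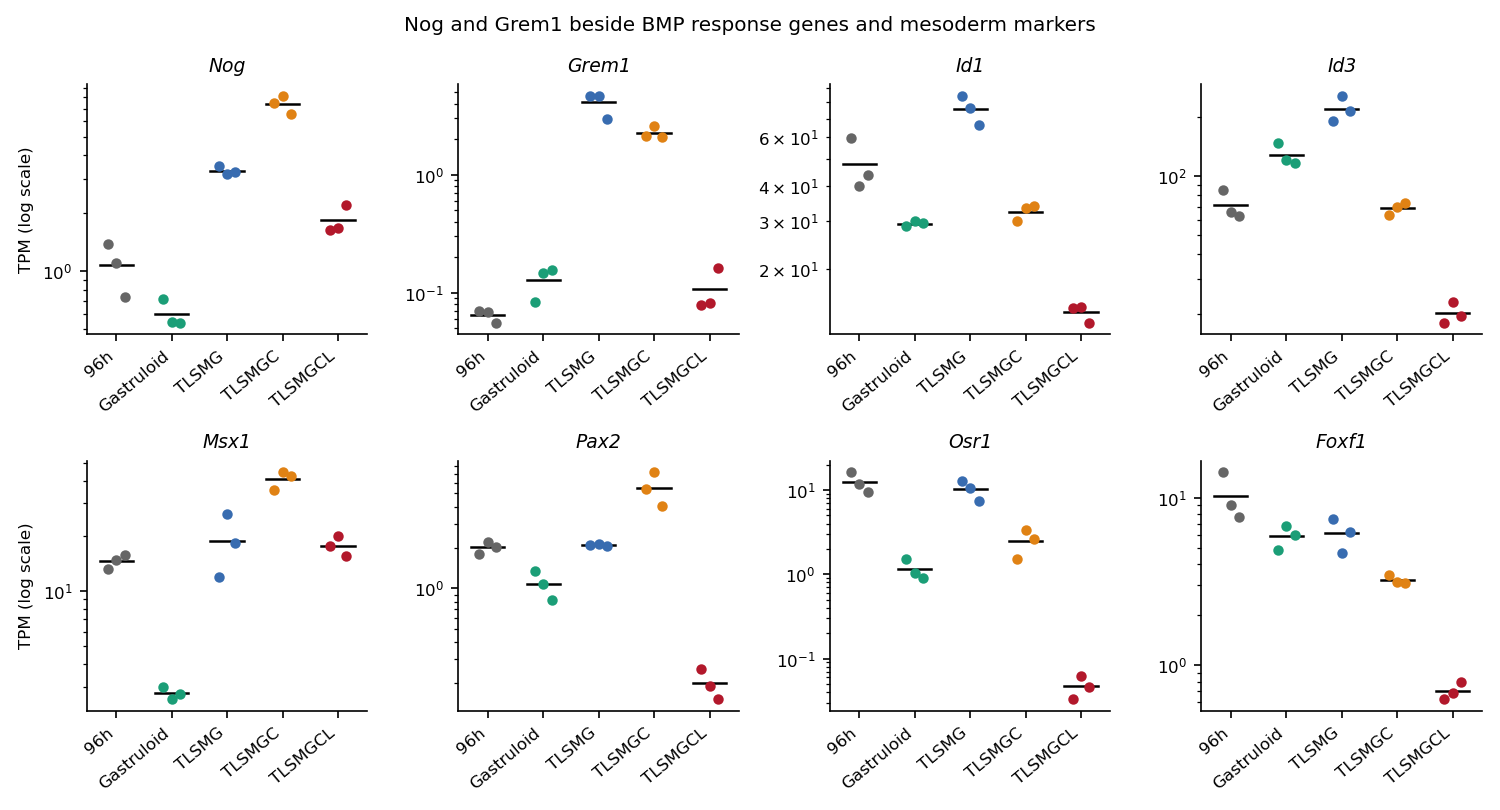
TPM on a log scale of Nog and Grem1, the BMP response genes Id1, Id3 and Msx1 and the mesoderm genes Pax2, Osr1 and Foxf1, with 1 point per library and a line at the group mean (n = 3). In every panel the 3 TLSMGCL libraries lie below the 3 TLSMGC libraries.

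The rest of the pathway was counted over lists of 83 further genes, of which 82 were found and 56 reached a mean of 1 TPM. Of 10 tested receptors, 8 were higher in TLSMG than in Gastruloid and none lower, and the list median was 0.54 against 0.13 for all genes. Named by size, Acvrl1, a receptor of endothelium, was 9.67 ± 1.37 against 2.72 ± 0.155 TPM (SD, n = 3). With CHIR99021, 9 of 10 receptors were lower (median -0.57 against -0.16 for all genes), again led by Acvrl1 at -2.19 (adjusted p = 4.08e-06). With LDN limma called 0 of the 10 under TPM, FPKM or median-of-ratios scaling, and 0 had an unadjusted p under 0.05 (median -0.10 against -0.04). The receptor counts for Matrigel and CHIR99021 were 8 and 9 under all 3 scalings.

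Of 9 tested Smads and their ubiquitin ligases, 6 were higher with Matrigel, led by Smad5 (0.96, adjusted p = 6.24e-05), and 8 lower with CHIR99021, led by Smad7 (-0.69, 0.000348). Median-of-ratios scaling called 3 and 5, and FPKM 3 and 8. The medians were 0.37 and -0.37, against 0.13 and -0.16 for all genes. With LDN 1 was called, Smad3, which transmits activin and TGF-beta signals (0.46, adjusted p = 0.0475), and not without TLSMGC replicate 2 or 3 or TLSMGCL replicate 1 or 3 (adjusted p up to 0.183). Of 8 BMP response genes, 6 were higher with Matrigel (median 0.71 against 0.13), 2 higher and 5 lower with CHIR99021 (median -0.52 against -0.16), and 3 lower with LDN (median -0.64 against -0.04). With LDN, 7 of the 8 had an unadjusted p under 0.05 in limma.

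Of 10 tested other secreted antagonists and modulators, 2 were called higher with LDN and 0 lower (median 0.03 against -0.04), and between 0 and 2 were called higher when a library was left out. Nbl1, a relative of Gremlin, was 8.19, 4.87 and 5.975 TPM in TLSMGC and 16.2, 14.2 and 14.6 TPM in TLSMGCL (1.15 ± 0.19 SE, adjusted p = 0.00935, and 0.0523 without TLSMGC replicate 2). Sost, which binds WNT co-receptors and BMPs, was 0.915, 1.33 and 2.08 TPM in TLSMGC and 4.02, 4.45 and 4.43 TPM in TLSMGCL (1.14, adjusted p = 0.0151). The Sost call was lost in 4 of 6 fits without a library, those without TLSMGC replicate 1 or 2 or TLSMGCL replicate 1 or 3, with adjusted p up to 0.0604. With CHIR99021 2 of 10 were higher and 7 lower (median -0.80 against -0.16). Wfikkn1, which binds Gdf11 and its relative myostatin, rose by 1.24 (adjusted p = 3.82e-05), and Cer1, an antagonist of Nodal, BMP and WNT, fell by 3.52 (1.13e-06). Cer1 had been 404, 179 and 138 TPM at 96h and was 18.8, 26.2 and 27.2 TPM in Gastruloid, 11.5, 8.79 and 14.7 TPM in TLSMG and below 0.5 TPM in all 6 libraries with CHIR99021 at the end. Its level at 96h was therefore above that of Fst, the highest of the 4 antagonists described here.

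Of 3 tested further BMP and GDF ligands, Gdf10 was the largest mover. It was 3.15 ± 1.15 TPM in TLSMG and 0.131 ± 0.0371 TPM in TLSMGC (SD, n = 3), a fall of -1.84 (adjusted p = 3.13e-06). Gdf10 had means of 2.23 TPM in Gastruloid, 0.773 TPM at 96h and 0.151 TPM in TLSMGCL. It thus passed the filter only through Gastruloid and TLSMG, and this call is not free of that selection. With CHIR99021, 30.5% of all genes were lower and 10.4% higher. Chordin proteases and ligand processing genes were lower in 4 of 7 (median -0.61 against -0.16 for all genes), led by Furin (-0.84, adjusted p = 0.00216). Of these 7, limma called 0 with LDN, where 1 had an unadjusted p under 0.05. Of 5 co-receptors, 3 were lower with CHIR99021 (median -0.47 against -0.16), led by Eng, an endothelial co-receptor (-1.22, adjusted p = 0.000202). Median-of-ratios scaling and FPKM each called 3 lower and 1 higher. With LDN, limma called 0 of the 5 under TPM, although 4 had an unadjusted p under 0.05 (median 0.21 against -0.04). Each of the other scalings called 1 higher with LDN. Of 7 activin, Nodal and TGF-beta ligands, 4 were lower and 2 higher in Gastruloid than at 96h, with Lefty2 the largest fall (-3.09). Their median was -1.01 against 0.004 for all genes, of which 20.5% were lower and 20.8% higher. As a check of the added CHIR99021, 10 of 11 WNT feedback genes were higher in TLSMGC than in TLSMG and none lower, led by Sp5 at 177 ± 18.3 against 7.20 ± 0.849 TPM.

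**Figure D5:**
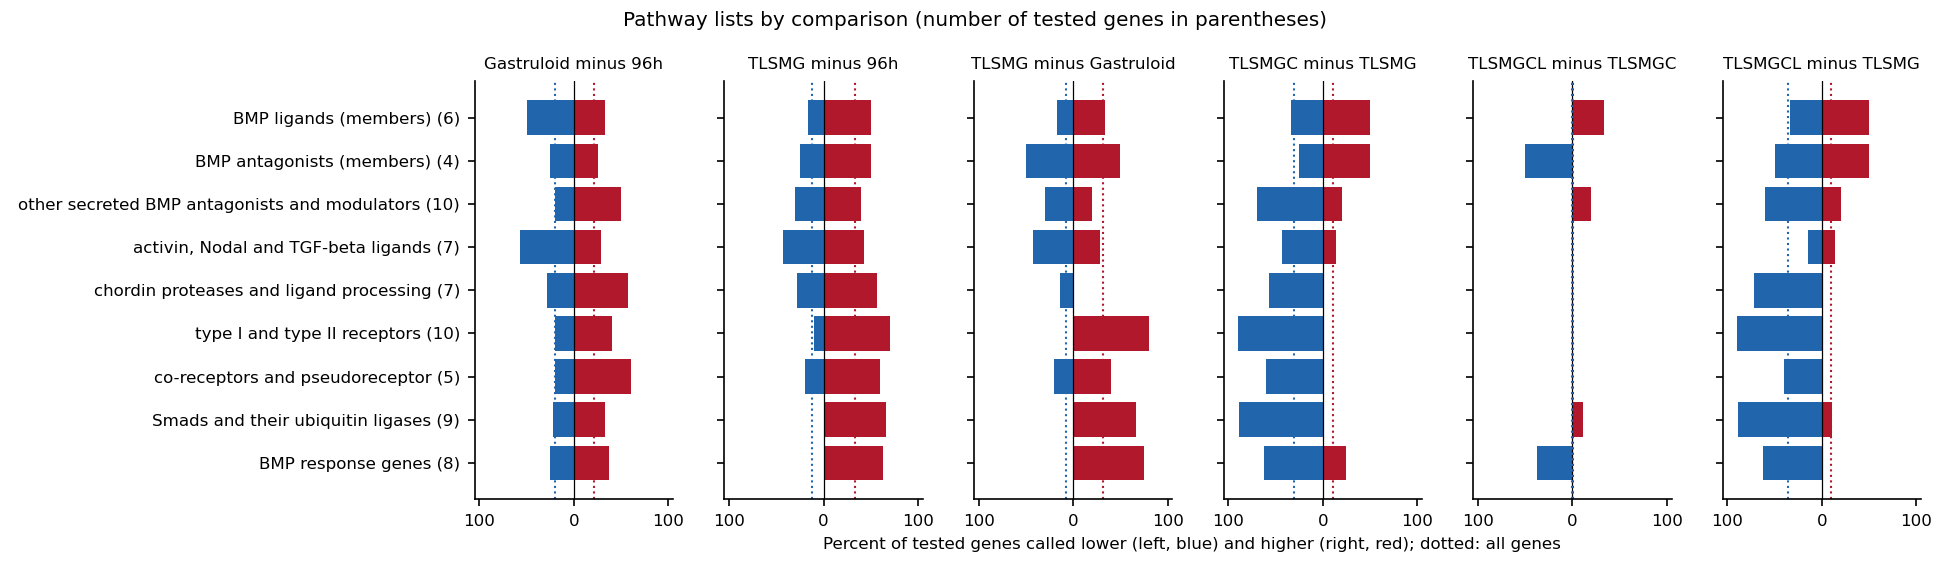
Percent of the tested genes of each list called higher (red, right) or lower (blue, left) in each comparison, with dotted lines for the percent of all genes. With CHIR99021 the receptor bar reaches 9 of 10 to the left, and with LDN 5 of the 9 lists drawn, the ligand and antagonist lists among them, hold a call.

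Profiles over the 15 libraries were compared by Pearson's r on log2(TPM + 1), with genes of a mean of at least 5 TPM. The libraries of a group share their condition, so these values describe likeness over 5 conditions and carry no p. Twist1, a mesenchymal transcription factor, was most like Bmp5 (r = 0.980), and Eya2 was most like Bmp3 (0.976) and Chrd (0.853). For Chrd the second was Bmp3 itself (0.852). Baiap2l1 (0.976) and Stra6 (0.972) were most like Bmp7, Mad2l1 (0.973) like Gdf11 and Gpi1 (0.973) like Fst. Tspan12 (0.950), Rnf138 (0.939) and Hoxd8 (0.936) were most like Grem1, and Cacybp (0.932) most like Nog. Reln was most like Bmp2 (0.942), and the best match of Bmp4 was lower (Kcmf1, 0.859). Among the 10 genes themselves, Bmp7 and Fst had the highest r (0.903), Nog and Grem1 had 0.774, and Bmp2 and Bmp3 the lowest (-0.76).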

How the data were processed

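Polyadenylated RNA of 15 bulk samples in 5 groups was analysed. Per the submitters' processing notes, cutadapt 2.4, STAR 2.7.3a, StringTie 2.0 and mouse build mm10 were used; the annotation release is not given in the sources used here. The authors' deposited TPM and FPKM values and coverage (mean read depth) stood in 1 StringTie table per library, per the file headers, so read counts per gene were not analysed. Of 54446 gene IDs, 54409 matched GENCODE M21 and 53499 had the same coordinates. Lines of a repeated ID (7 to 13 per table) were summed.

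The 14290 genes whose TPM averaged 1 or more entered limma 3.58.1 (R 4.3.3) as log2(TPM + 1) values, with all 5 groups in 1 fit, a trend in the prior variance, two-sided tests and Benjamini-Hochberg adjustment per comparison over all genes, at 0.05. The fit was tested on simulated data. Tables and figures used Python 3.11.15, numpy 2.4.6, pandas 2.3.3 and matplotlib 3.10.9. The members and lists were chosen with earlier results of these data known. All 10 members are named, Id1, Id3 and Msx1 in every comparison, and from pathway lists the called genes with the largest difference. Alternatives were other pseudocounts (0.1, 0.5), no filter, a filter of 5 TPM, FPKM, median-of-ratios scaling, a replicate block, no trend, 2 groups only, a minimum absolute log2 difference of 1, and each library left out. The 5 single-cell samples and NanoString data were not analysed here.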

Additional observations from a re-analysis of the deposited data

How the results depend on the processing

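Of 60 pairs of a member and a comparison, 42 were called. Of these, 30 kept call and direction under every alternative that tested them except the minimum log2 difference of 1. No pair called in the main fit or in an alternative changed direction between them. Some pairs not called did change sign, such as Bmp5 in TLSMGCL minus TLSMGC, from -0.10 to as high as 0.15 without 1 library. Counts of members called, as reported, were 7 for Gastruloid minus 96h, TLSMG minus 96h and TLSMG minus Gastruloid, 8 for TLSMGC minus TLSMG, 4 for TLSMGCL minus TLSMGC, 9 for TLSMGCL minus TLSMG and 10 for the F test. A filter of 5 TPM keeps 4 members, and of these it called 3, 4, 3, 4, 2, 4 and 4 in that order, since fewer genes were tested. A minimum difference of 1 left 1 member in Gastruloid minus 96h, 3 in TLSMG minus Gastruloid, 2 in TLSMGC minus TLSMG and 5 in TLSMGCL minus TLSMG. With no filter on low values, 4 members were called in TLSMG minus Gastruloid and 2 in TLSMGCL minus TLSMGC, and a fit of only the 2 groups also gave 2 in TLSMGCL minus TLSMGC; the cause was not tested. Leaving out each library gave 4 to 8 members in Gastruloid minus 96h (4 without 96h replicate 1), 6 to 7 in TLSMG minus 96h, 4 to 8 in TLSMG minus Gastruloid (the low counts without Gastruloid replicate 2 or TLSMG replicate 1), 7 to 8 in TLSMGC minus TLSMG, 2 to 4 in TLSMGCL minus TLSMGC, 9 to 9 in TLSMGCL minus TLSMG and 9 to 10 in the F test. The replicate block kept 40 of 42 calls and lost Chrd in TLSMG minus Gastruloid (adjusted p = 0.0670) and Nog in Gastruloid minus 96h (0.0519). Replicate numbers were not treated as a pairing: over 30 pairs of libraries with the same number in different groups, deviations from the group means had an average r of -0.02 (-0.18 to 0.10). Read counts per gene were not analysed. Mean read depth over exons was lowest for Grem1 in its low libraries (from 0.108), which limits Grem1 at its low levels most.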
